A study of Mus musculus with 8 samples.

Results

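Wnt5a, Fzd1, Fzd3, Fzd6, Fzd8, Sfrp1, Sfrp2, Dkk2 and Dkk3 encode 1 secreted Wnt ligand, 4 Frizzled receptors and 4 secreted proteins of antagonist families. They are described here in the suprachiasmatic nucleus (SCN) of the mouse. They are 9 of the 19938 genes that had an array probe with exactly 1 gene symbol, and each had 1 such probe. The genes were chosen by their array values in this study, the contrast between subjective night and subjective day included, so that contrast is described for them without a test. A level filter set at the 40th percentile of the probe means, a log2 level of 6.82, left 12452 genes for testing, 8 of the 9 among them. Sfrp1 lay below it, with a mean log2 level of 6.69.

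The SCN is the hypothalamic nucleus that holds the master circadian clock. Its RNA was hybridised to 8 whole-transcript arrays in 4 groups of 2, namely Gpr176-/- mice at circadian time 18 (CT18) and at CT6, and wild-type mice at CT18 and at CT6. All mice were C57BL/6J, had lived under 12 h of light and 12 h of darkness for over 2 weeks, and were sampled in constant darkness, where CT6 falls in subjective day and CT18 in subjective night. Gpr176 is a receptor of SCN neurons without a known ligand that signals through G proteins. Each array carried SCN tissue cut by laser microdissection from 10 animals and pooled, so the spread between the arrays of a group is a spread between pools and not between animals. The labels give neither the sex and age of the mice nor which portion of Gpr176 is deleted.

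Wnt proteins are secreted lipid-modified signals that bind Frizzled receptors at the cell surface. With the co-receptors LRP5 and LRP6 they stabilise beta-catenin, which enters the nucleus and acts with TCF/LEF factors; other routes, among them planar cell polarity, do without beta-catenin. Secreted Frizzled-related proteins (Sfrp) carry a Frizzled-like domain that binds Wnt proteins, and several, not all, Dickkopf proteins (Dkk) act at LRP5 and LRP6. In the adult brain Wnt signals are known for roles at synapses and in blood vessels.

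The probe of Gpr176 read 8.42 and 8.56 in knockout CT18 arrays and 8.08 and 8.02 in knockout CT6 arrays, against 9.73 and 9.87 in wild-type CT18 arrays and 9.37 and 9.31 in wild-type CT6 arrays. It fell by 1.30 ± 0.0491 on the log2 scale in the knockout (limma, adjusted p = 3.37e-06), and signal remained there. In a principal component analysis the leading axis (51.9% of the variance) split the CT18 arrays from the CT6 arrays, and on the next (18.1%) the A arrays of both CT18 groups lay at opposite ends. All 11 of 11 SCN neuron markers passed the level filter. Of 19 leptomeningeal marker genes 13 passed it too, beside 12452 of all 19938 genes. The RefSeq table places Wnt5a and Fzd3 on chromosome 14, Sfrp2 and Dkk2 on chromosome 3, Fzd1 on 5, Fzd6 on 15, Fzd8 on 18, Sfrp1 on 8 and Dkk3 on 7.

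Wnt5a, a ligand known mainly for routes without beta-catenin, was lower at night in both genotypes. Its log2 level was 6.54 and 6.77 in knockout CT18 arrays and 7.53 and 7.69 in knockout CT6 arrays. In wild type it was 7.03 and 6.80 at CT18 and 7.61 and 7.61 at CT6. Every CT18 array lay below every CT6 array, and 3 of the 4 CT18 arrays were below the level of the filter, so Wnt5a passed the filter through its daytime level. Over both genotypes the difference of CT18 minus CT6 was -0.82 ± 0.0687 (SE), a level 1.77 times lower at night, with -0.96 in the knockout and -0.69 in wild type. The knockout at CT18 had the lowest mean (6.66), wild type at CT18 came next (6.92), and knockout and wild type at CT6 shared a mean of 7.61. The CT6 groups did not differ beyond their spread.

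**Figure D1:**
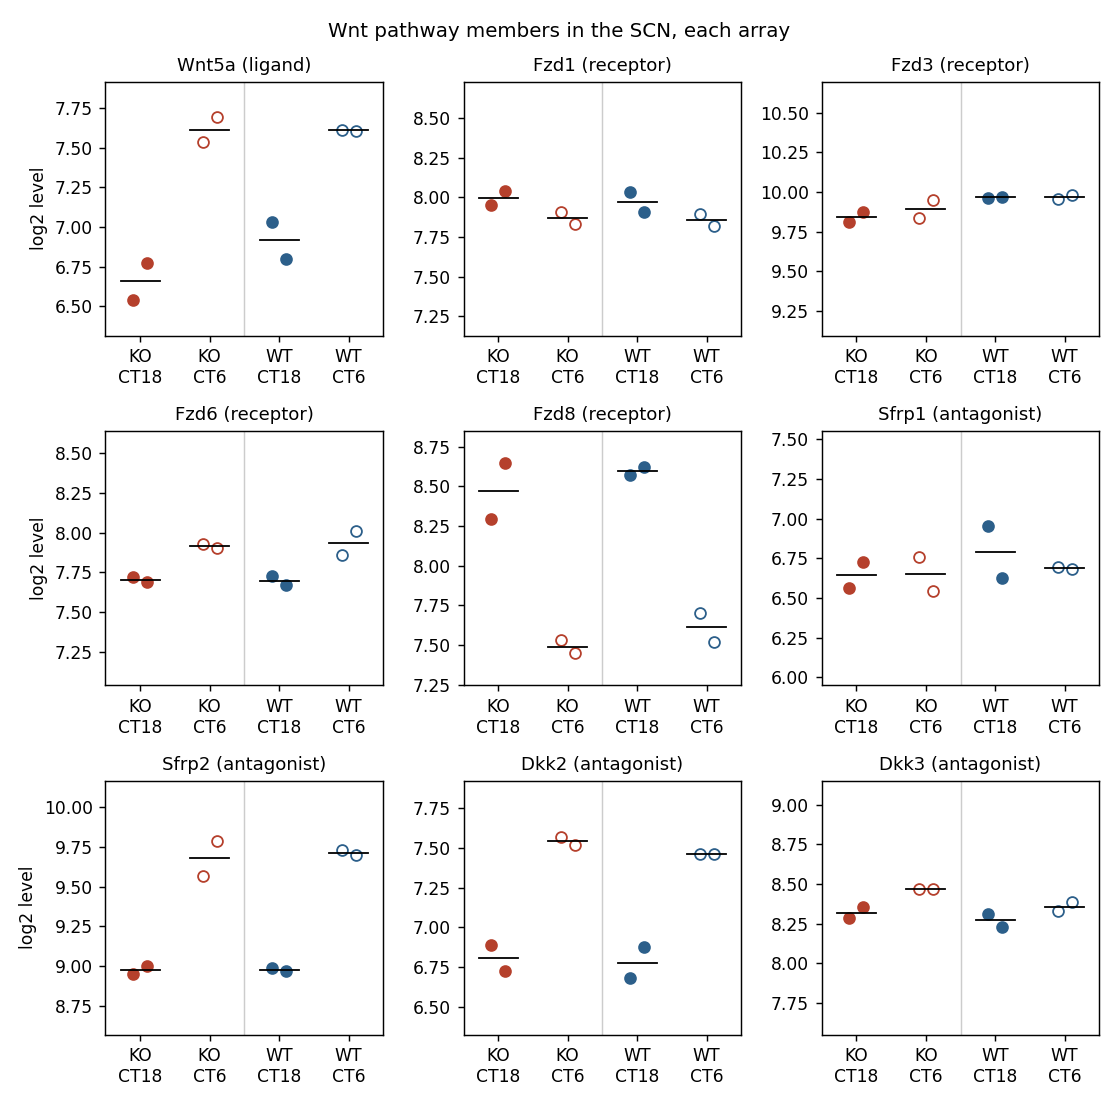
Log2 level of the 9 genes in each of the 8 arrays, 1 panel per gene, with knockout groups in red left of wild-type groups in blue, filled points for CT18, open points for CT6 and a bar at each group mean; the vertical axis spans the same number of log2 units in every panel but is centred on the middle of each gene's own values. Wnt5a, Sfrp2 and Dkk2 sit lower and Fzd8 sits higher in all 4 CT18 arrays, while the 8 points of Fzd3 and Sfrp1 overlap between the times.

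Fzd8, a receptor that can bind Wnt proteins together with LRP6, was the gene of the 9 with the largest difference, and it was higher at night. It measured 8.29 and 8.65 in knockout CT18 arrays, against 7.53 and 7.45 in knockout CT6 arrays. In wild type it measured 8.57 and 8.62 at CT18, against 7.70 and 7.52 at CT6. The times did not overlap in either genotype. The difference of CT18 minus CT6 was 0.98 ± 0.0749 over both genotypes, 1.97 times higher at night, and it was 0.98 in the knockout and 0.98 in wild type.

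Fzd6, a receptor known from planar cell polarity, ran the other way. It read 7.72 and 7.69 in knockout CT18 arrays and 7.93 and 7.90 in knockout CT6 arrays, and 7.73 and 7.67 in wild-type CT18 arrays and 7.86 and 8.01 in wild-type CT6 arrays. All CT18 arrays lay below all CT6 arrays, by a mean of -0.22 ± 0.0438 on the log2 scale.

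Fzd1, a receptor of the beta-catenin route, was slightly higher at night. It read 7.95 and 8.04 in knockout CT18 arrays and 7.91 and 7.83 in knockout CT6 arrays, and 8.03 and 7.91 in wild-type CT18 arrays and 7.89 and 7.82 in wild-type CT6 arrays. The lowest CT18 array lay above the highest CT6 array by less than the second decimal, and the difference was 0.12 ± 0.0457.

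Fzd3, a receptor that guides axons and works in planar polarity, showed no separation of the times. Its level was 9.81 and 9.87 in knockout CT18 arrays and 9.84 and 9.95 in knockout CT6 arrays, against 9.96 and 9.97 in wild-type CT18 arrays and 9.96 and 9.98 in wild-type CT6 arrays. The night-minus-day difference was -0.03 ± 0.0407.

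Sfrp2 and Dkk2, antagonists of different classes, were both lower at night by similar amounts. Sfrp2 read 8.948 and 8.999 in knockout CT18 arrays and 9.57 and 9.79 in knockout CT6 arrays, and 8.99 and 8.97 in wild-type CT18 arrays and 9.73 and 9.70 in wild-type CT6 arrays. Dkk2 read 6.89 and 6.72 in knockout CT18 arrays and 7.57 and 7.52 in knockout CT6 arrays, and 6.68 and 6.88 in wild-type CT18 arrays and 7.46 and 7.47 in wild-type CT6 arrays. Neither gene's CT18 arrays overlapped its CT6 arrays. The difference of CT18 minus CT6 was -0.72 ± 0.0505 for Sfrp2, 1.65 times lower at night, with -0.71 in the knockout and -0.74 in wild type. For Dkk2 it was -0.71 ± 0.0546, 1.64 times lower, with -0.74 in the knockout and -0.69 in wild type. With 2 of its CT18 arrays under the filter level, Dkk2 passed the filter through its daytime level, as Wnt5a did.

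The promoters of Sfrp2 and Dkk2 are shown because their levels moved together between the times. RefSeq sequence of build GRCm38.p6 was available for 3 of the 9 genes (Sfrp2, Dkk2 and Fzd1). The 250 bases before the start of each gene, plus strand, were chr3:83766071-83766320 for Sfrp2 and chr3:132085042-132085291 for Dkk2, written 5′ to 3′ with GC boxes (GGGCGG) and TATA boxes (TATAAA) in capitals.
Sfrp2: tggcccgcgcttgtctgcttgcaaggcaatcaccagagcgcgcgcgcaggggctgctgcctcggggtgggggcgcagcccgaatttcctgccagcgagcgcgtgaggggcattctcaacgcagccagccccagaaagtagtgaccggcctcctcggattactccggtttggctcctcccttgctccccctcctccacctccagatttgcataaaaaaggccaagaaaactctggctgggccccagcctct
Dkk2: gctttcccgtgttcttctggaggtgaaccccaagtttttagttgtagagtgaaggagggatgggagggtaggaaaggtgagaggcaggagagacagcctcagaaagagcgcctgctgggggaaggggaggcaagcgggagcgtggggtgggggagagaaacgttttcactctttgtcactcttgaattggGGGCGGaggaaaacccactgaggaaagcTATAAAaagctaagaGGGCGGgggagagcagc
The Dkk2 promoter held GC boxes that began 60 and 17 bases before the start and a TATA box that began 32 bases before it, and the Sfrp2 promoter held neither motif. That of Fzd1, not shown, held TATAAA letters that began 202 bases before its start and no GC box. Searched on both strands, a GC box stood in 32.7% and a TATA box in 12.4% of 32851 mouse promoters of the same length. G and C made up 63.6% of the Sfrp2 stretch and 55.6% of the Dkk2 stretch. The circadian E-box CACGTG (6.02% of all promoters), the D-box TTATGTAA or TTACGTAA (0.931%), the cAMP response element TGACGTCA (1.55%) and its part TGACG (17.8%), and the TCF/LEF motifs CTTTGAA or CTTTGAT (7.48%) occurred in 0 of the 3 promoters. TGACG is contained in TGACGTCA. No match says only that these letters are not in this window.

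Dkk3, a divergent Dickkopf protein, read 8.28 and 8.35 in knockout CT18 arrays and 8.47 and 8.47 in knockout CT6 arrays, and 8.31 and 8.23 in wild-type CT18 arrays and 8.33 and 8.38 in wild-type CT6 arrays. The times overlapped across genotypes. Its night-minus-day difference was -0.12 ± 0.0396, with -0.15 in the knockout and -0.09 in wild type.

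Sfrp1, a second Frizzled-related antagonist, was dim. It read 6.56 and 6.73 in knockout CT18 arrays and 6.76 and 6.55 in knockout CT6 arrays, and 6.96 and 6.63 in wild-type CT18 arrays and 6.70 and 6.68 in wild-type CT6 arrays. In 7 of 8 arrays it lay under the filter level, and the times overlapped. Without the filter its night-minus-day difference was 0.05 ± 0.0787. The array with the highest Sfrp1, the A array of wild type at CT18, was also the highest for the mean of the 19 leptomeningeal genes (7.62), and the next for both was the A array of the knockout at CT6 (7.58). Across the 8 arrays Sfrp1 and that mean had a Pearson r of 0.71, a description over arrays that share a scale. The part of leptomeningeal tissue in Sfrp1 was not tested.

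**Figure D2:**
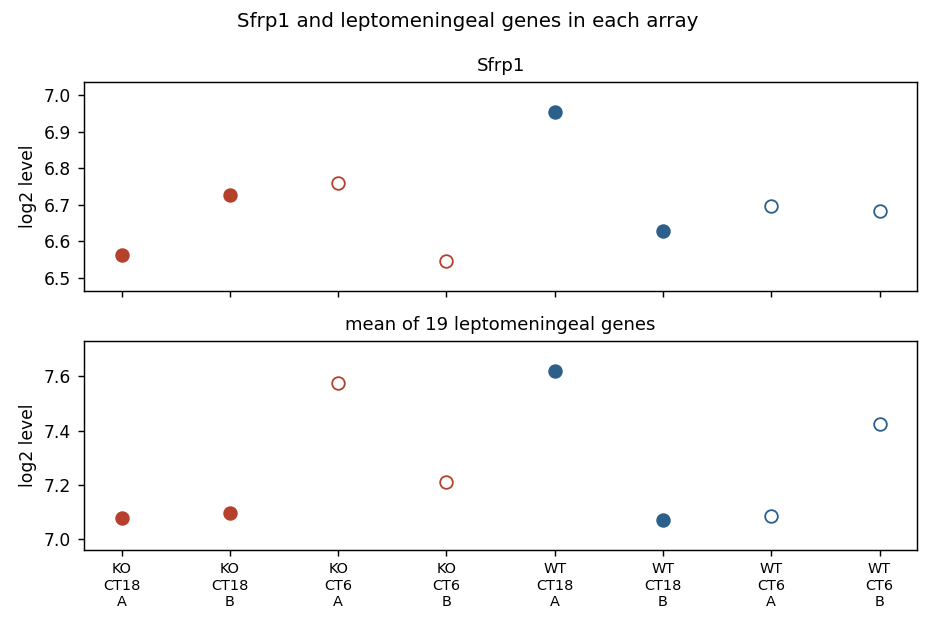
Log2 level of Sfrp1 (top) and mean log2 level of 19 leptomeningeal marker genes (bottom) in each of the 8 arrays, knockout arrays in red left of wild-type arrays in blue, filled for CT18 and open for CT6. Both panels are highest in the A array of wild type at CT18, and the A array of the knockout at CT6 comes next in both.

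The 4 CT18 arrays lay above the 4 CT6 arrays for 2 of the 9 genes (Fzd8 and Fzd1) and below them for 4 (Wnt5a, Fzd6, Sfrp2 and Dkk2), beside 12.6% and 8.30% of the genes tested. The contrast helped choose the genes, so nothing is read from these counts. In pooled tissue, fewer cells of a type and less RNA per cell cannot be told apart.

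**Figure D3:**
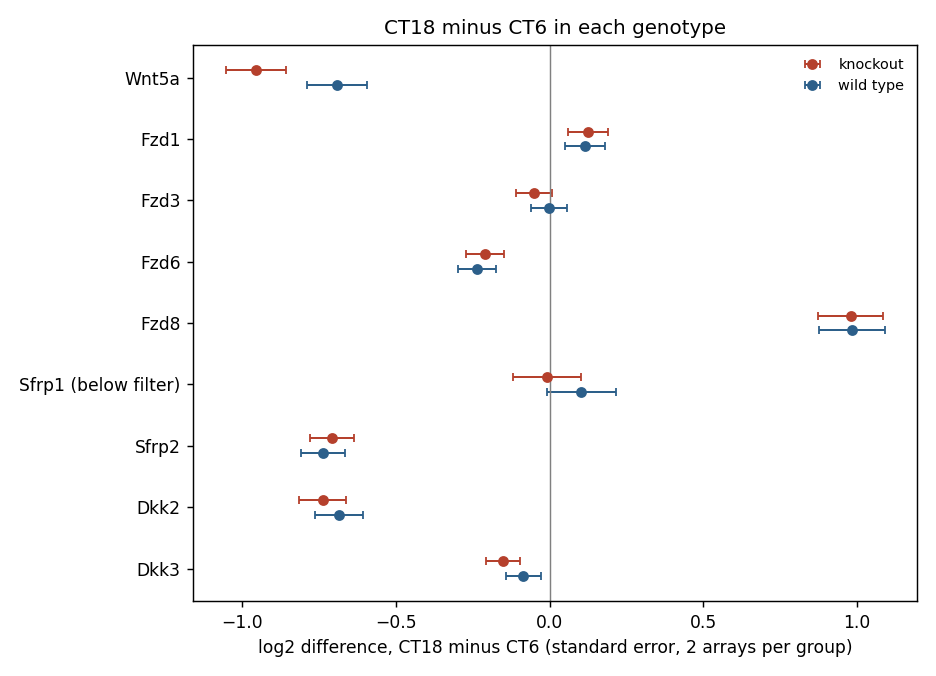
Log2 difference of CT18 minus CT6 for the 9 genes in the knockout (red, upper point of each pair) and in wild type (blue), with standard errors from the limma fit of 2 arrays per group; Sfrp1 comes from the fit without a level filter. The points of Wnt5a, Sfrp2, Dkk2, Fzd6 and Dkk3 lie below 0 and those of Fzd8 and Fzd1 above 0 in both genotypes.

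Markers of other cell types were compared between the same times, a call being an adjusted p under 0.05 in the limma fit over all genes. Over all genes tested, 10.0% were called higher and 6.79% lower at CT18, and 30.5% had an unadjusted p under 0.05. The mean of 7 ependymal and tanycyte markers ranged over 8.23 to 8.35 in CT18 arrays and 8.34 to 8.40 in CT6 arrays, with 2 of 6 tested genes called lower and 0 called higher. For 11 vessel markers the range was 7.78 to 7.95 at CT18 and 7.94 to 8.01 at CT6, with 3 of 9 tested genes called lower. Of 9 astrocyte markers 3 were called higher at CT18, though the ranges of their mean overlapped (10.25 to 10.46 at CT18 and 10.26 to 10.35 at CT6). None of the 13 leptomeningeal genes tested was called in limma, 2 having an unadjusted p under 0.05. The mean of all 19 leptomeningeal genes ranged over 7.07 to 7.62 at CT18 and 7.08 to 7.58 at CT6. Of 7 oligodendrocyte markers tested 1 was called lower, and of 7 microglial markers 0 (1 with an unadjusted p under 0.05). The oligodendrocyte mean ranged over 9.39 to 9.77 at CT18 and 9.58 to 9.82 at CT6. Of the 11 SCN neuron markers 3 were called higher and 4 lower. Their mean ranged over 10.83 to 10.88 at CT18 and 10.92 to 10.99 at CT6, without overlap. An unadjusted p under 0.05 in limma was found for 4 ependymal and tanycyte, 3 vessel, 3 astrocyte, 3 oligodendrocyte and 8 SCN neuron markers. Between knockout and wild type over both times, 0 genes of any of these lists were called in limma, with 0 to 3 per list under an unadjusted p of 0.05, beside 0.0241% and 12.0% of all genes tested. The part of these cell types in the differences of Wnt5a, Fzd8, Sfrp2 and Dkk2 was not tested.

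The comparison of knockout with wild type asks what loss of Gpr176 changes, and here the genes were tested. Over both times, 0 of the 8 measured genes were called between knockout and wild type in limma, 1 having an unadjusted p under 0.05, beside 0.0241% of all genes called and 12.0% under the unadjusted threshold. At CT6 the counts were 0 and 0, beside 0.00803% and 4.24%. At CT18 they were 0 and 1, beside 0.00803% and 12.5%. The CT18 counts include Wnt5a and Dkk2, which passed the filter through their CT6 level, with 3 and 2 CT18 arrays under it.

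The gene under the unadjusted threshold over both times was Fzd3. Its 4 knockout arrays all lay below its 4 wild-type arrays, as in 2.13% of the genes tested, while 2.10% had all knockout arrays above. The difference was -0.10 ± 0.0407 on the log2 scale, with an unadjusted p of 0.0352 and an adjusted p of 0.397 (limma, 4 arrays against 4). When 1 array was left out the difference lay between -0.13 and -0.07, with an adjusted p of 0.263 to 0.765 in limma.

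At CT18 it was Wnt5a, whose 2 knockout arrays lay below both wild-type arrays, as in 26.7% of the genes tested. Of these 4 arrays 3 lay below the level of the filter, which Wnt5a passed through its CT6 level. Knockout minus wild type was -0.26 ± 0.0971 on the log2 scale, with an adjusted p of 0.354 in limma. It was -0.14 without the A array of either CT18 group, -0.38 without the B array of either, and -0.03 without the A arrays of both, a choice made after seeing the data. At CT6 the difference was 0.00 ± 0.0971 (adjusted p = 0.995).

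For the other genes the differences over both times were -0.12 ± 0.0749 for Fzd8 (limma, adjusted p = 0.520), 0.08 ± 0.0396 for Dkk3 (0.440), 0.06 ± 0.0546 for Dkk2 (0.697), -0.02 ± 0.0505 for Sfrp2 (0.888), 0.02 ± 0.0457 for Fzd1 (0.878) and -0.01 ± 0.0438 for Fzd6 (0.964). The 95% intervals bound what 4 arrays against 4 leave possible. They ran from -0.13 to 0.09 for Sfrp2 and from -0.29 to 0.04 for Fzd8. When 1 array was left out, the difference of Fzd8 lay between -0.21 without the B array and -0.03 without the A array of the knockout at CT18. That of Dkk2 lay between 0.0062 and 0.105. Sfrp1, in the fit without a filter, differed by -0.09 ± 0.0787 (adjusted p = 0.771).

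**Figure D4:**
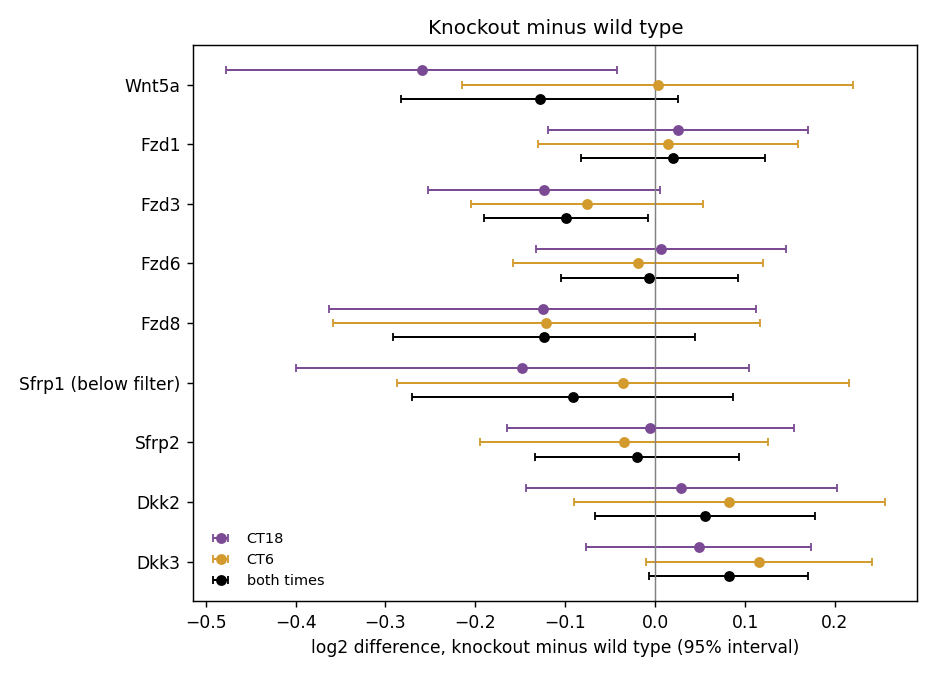
Log2 difference of knockout minus wild type for the 9 genes at CT18 (purple), at CT6 (ochre) and over both times (black), with 95% intervals from the limma fit; Sfrp1 comes from the fit without a level filter. Most intervals span 0, and no difference of the 8 measured genes passed the adjustment over all genes.

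Whether the night-day difference itself depended on genotype was tested as an interaction. None of the 8 measured genes was called in limma and 0 had an unadjusted p under 0.05, beside 0% of all genes called and 4.86% under the unadjusted threshold. Wnt5a had the largest value of the 8, at -0.26 ± 0.137 (95% interval -0.57 to 0.05, adjusted p = 0.944). That value was -0.03 without the A arrays of both CT18 groups and lay between -0.38 and -0.14 when 1 array was left out. For Fzd8 the interaction was -0.00 ± 0.150 (95% interval -0.34 to 0.33), for Sfrp2 0.03 ± 0.101 and for Dkk2 -0.05 ± 0.109 on the log2 scale. Wnt5a, with 3 CT18 arrays under the filter level, and Dkk2, with 2, passed the filter through their CT6 level. Their interactions therefore rest partly on CT18 levels near or under the filter.

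The wider pathway was followed through 10 lists with 106 genes, the 9 included; 105 were on the array and 74 passed the level filter. Without the 9 genes, 66 were tested. Of these, 3 rose (4.55%) and 1 fell (1.52%) at CT18 over both genotypes, beside 10.0% and 6.79% of all genes tested. Their median difference was 0.02, and that of all genes was 0.01. The 4 were Lgr5, Znrf3, Apc2 and Prickle1. In the knockout alone 1 of the 66 rose and 1 fell, beside 3.63% and 3.53% of all genes, and in wild type alone again 1 and 1, beside 4.40% and 2.54%. These counts also depended on single arrays, with 1 to 2 called in the knockout and 0 to 2 in wild type when 1 array was left out. The count of 4 over both genotypes was 2 without the A array of wild type at CT6 or of the knockout at CT6, 7 with a variance trend, and 8 of 36 with the filter at the 60th percentile.

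Lgr5, a receptor for R-spondins, which strengthen Wnt signals, rose by 0.32 ± 0.0386 at CT18 (limma, adjusted p = 0.000551). It read 8.04 and 7.94 in knockout CT18 arrays and 7.65 and 7.61 in knockout CT6 arrays, and 7.95 and 7.96 in wild-type CT18 arrays and 7.68 and 7.66 in wild-type CT6 arrays. The times did not overlap, and the call was also made in each genotype alone (limma, adjusted p = 0.00451 in the knockout and 0.0145 in wild type). The wild-type call was lost without any 1 of the 4 wild-type arrays (adjusted p up to 0.0881). Without the A arrays of both CT18 groups it was lost in each genotype (0.0724 in the knockout and 0.0998 in wild type), while over both genotypes the adjusted p was 0.0116.

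Prickle1, a planar polarity protein, fell by 0.26 ± 0.0417 on the log2 scale at CT18 (limma, adjusted p = 0.00244). It read 7.82 and 7.90 in knockout CT18 arrays and 8.09 and 8.11 in knockout CT6 arrays, and 7.93 and 7.98 in wild-type CT18 arrays and 8.18 and 8.29 in wild-type CT6 arrays. Again no CT18 array reached a CT6 array. Each genotype alone gave the call too (limma, adjusted p = 0.0383 in the knockout and 0.0184 in wild type). Under other scalings, filters, probe rules or models these reached 0.0767 and 0.0509, and the value over both genotypes reached 0.00519. When 1 array was left out, the difference lay between -0.28 and -0.20 in the knockout and between -0.34 and -0.23 in wild type. The call in each genotype alone was lost in some of these fits. Without the A arrays of both CT18 groups, a choice made after seeing the data, the difference was -0.20 in the knockout and -0.26 in wild type. Over both genotypes it was then -0.23.

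Znrf3, a ubiquitin ligase that removes Frizzled receptors from the surface, rose by 0.21 ± 0.0560 (limma, adjusted p = 0.0297). The levels were 8.23 and 8.47 in knockout CT18 arrays and 8.09 and 8.21 in knockout CT6 arrays, and 8.35 and 8.31 in wild-type CT18 arrays and 8.10 and 8.12 in wild-type CT6 arrays. Apc2, a relative of the beta-catenin destruction complex protein Apc, rose by 0.16 ± 0.0372 (adjusted p = 0.0176). It read 9.04 and 9.06 in knockout CT18 arrays and 8.86 and 8.91 in knockout CT6 arrays, and 9.11 and 9.07 in wild-type CT18 arrays and 8.92 and 8.96 in wild-type CT6 arrays. Both genes were higher in all CT18 arrays than in all CT6 arrays. The Znrf3 call was lost without either wild-type array at CT6 or CT18, the A array of the knockout at CT6 or the B array of the knockout at CT18 (adjusted p up to 0.0914). The Apc2 call was lost without the A array of wild type at CT6 or CT18, the A array of the knockout at CT6 or the B array of the knockout at CT18 (up to 0.0616).

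By role, the ligand list had 19 genes, of which 6 passed the filter. The 5 besides Wnt5a were not called, with 0 under an unadjusted p of 0.05 in limma, and differed by -0.07 (Wnt7b) to 0.08 (Wnt5b) on the log2 scale between the times. Of 10 Frizzled genes 7 passed. The 3 not described above, Fzd2, Fzd5 and Fzd9, differed by -0.05, 0.10 and 0.03, and none was called in limma (1 with an unadjusted p under 0.05). Fzd4, Fzd7 and Fzd10 were below the filter.

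Of 14 secreted antagonists 6 passed, and of the 3 not described above none was called in limma (1 with an unadjusted p under 0.05). Sfrp5 differed by 0.11 ± 0.0442 (limma, adjusted p = 0.134), Sost by 0.09 and Sfrp4 by -0.01. Wif1, also on the antagonist list, lay just below the filter (mean 6.80) and so was not among the 6. It read 6.57 and 6.66 in knockout CT18 arrays and 6.99 and 7.04 in knockout CT6 arrays. In wild type it read 6.66 and 6.70 at CT18 and 6.89 and 6.92 at CT6. Without a level filter Wif1 differed by -0.31 (limma, adjusted p = 0.00166). Among 6 co-receptors 5 passed and 0 were called in limma, 2 having an unadjusted p under 0.05, beside 30.5% of all genes. Lrp6, a co-receptor named above, differed by -0.11 ± 0.0379 (limma, adjusted p = 0.0688, and 0.0404 with the filter at the 60th percentile). Porcn and Wls, which the cell needs to modify and release Wnt proteins, differed by -0.04 and -0.14 and were not called.

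Of the 14 genes of the cytoplasmic route all passed the filter and 1, Apc2, was called; Ctnnb1, which encodes beta-catenin, differed by 0.15 ± 0.0535 (limma, adjusted p = 0.0838). It was called with the filter at the 60th percentile (0.0466) and with a variance trend (0.0455). Of 13 nuclear partners tested, 0 were called in limma and 3 had an unadjusted p under 0.05, again beside 30.5% of all genes. Of 14 known beta-catenin target genes 8 passed the filter. Over both genotypes all 8 lay above 0, with a median of 0.08, while 6787 of the 12452 genes tested lay above 0. The 2 called among the 8 were Lgr5 and Znrf3. All 8 also lay above 0 over both genotypes in the values as deposited and with median centring. In wild type alone 7 lay above 0 and 1 below, and likewise in the knockout alone. The 8 genes were not tested as a set. Axin2, a widely used target of the route, differed by 0.03 ± 0.0589.

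Knockout against wild type gave 0 called genes of 74 in limma over both times, 5 having an unadjusted p under 0.05, beside 12.0% of all genes tested. The interaction gave 0 called and 3 under the unadjusted threshold, beside 4.86%. The smallest p in the knockout comparison was that of Lef1, a TCF/LEF factor, at -0.13 ± 0.0383 (limma, adjusted p = 0.349). The smallest in the interaction was that of Sfrp4, at -0.34 ± 0.0856 (limma, adjusted p = 0.944). The mean level of Sfrp4, 6.8493, was just above the filter level of 6.8244. Its knockout CT18 arrays (6.7906 and 6.7239) and its wild-type CT6 arrays (6.7204 and 6.8225) lay under that level.

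**Figure D5:**
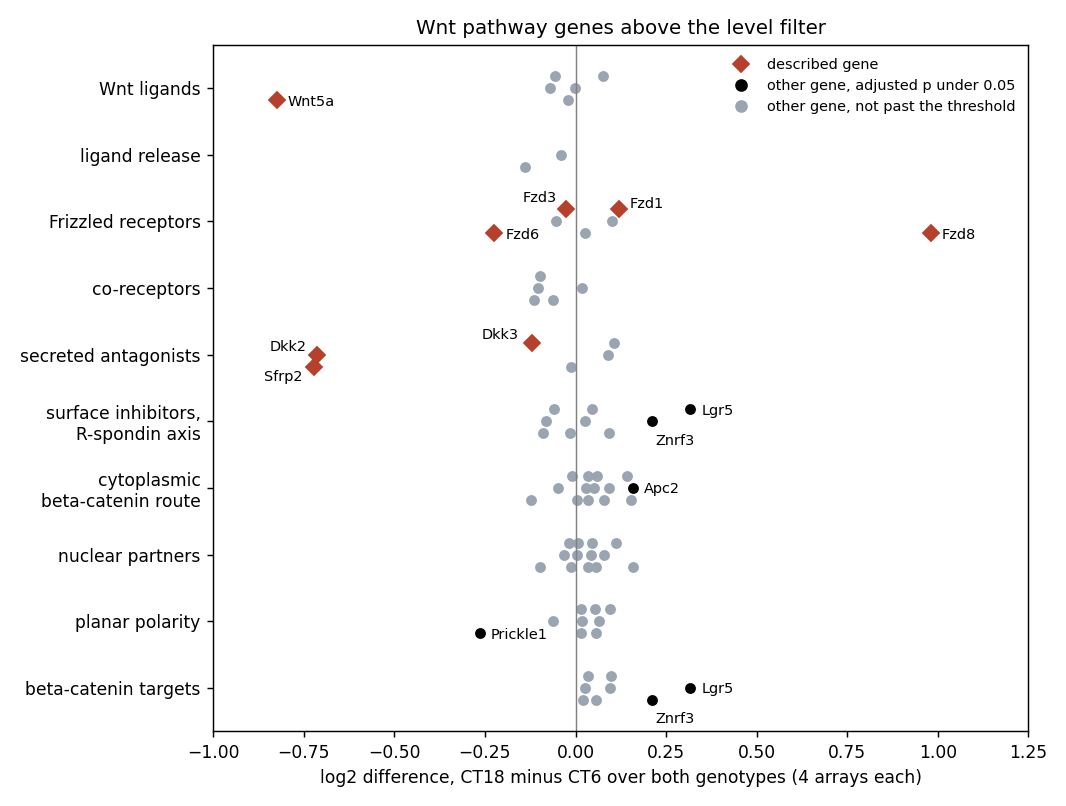
Log2 difference of CT18 minus CT6 over both genotypes for the 74 Wnt pathway genes above the level filter, 1 row per list; red diamonds are the 8 measured genes described first, black points other genes with an adjusted p under 0.05, and grey points the rest, with genes of 2 lists shown in both rows. Fzd8, Wnt5a, Sfrp2 and Dkk2 lie farthest from 0, outside the span of -0.26 to 0.32 of all other genes.

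Ranked by the size of the night-day difference among the 74 genes, an order on which the choice of the 9 bears, Fzd8, Wnt5a, Sfrp2 and Dkk2 took ranks 1 to 4, Fzd6 rank 7, and Lgr5 and Prickle1 ranks 5 and 6.

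Genes with the most similar profiles were found by Pearson r over the 8 arrays, which form a CT18 and a CT6 set and share a scale, so r is a description. Among the 9 genes themselves, Sfrp2 ran with Wnt5a (r = 0.963) and Dkk2 (0.954), and Fzd8 ran opposite to Dkk2 (-0.977), Sfrp2 (-0.954) and Fzd6 (-0.948). Wnt5a was most like Lonrf1 (0.993), Man2a1 and Ipo8. Sfrp2 was most like Kcnc2 (0.996), Rasd2 and Hlf, and Dkk2 most like Nr4a2 (0.992), Styk1 and Spag4.

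Fzd8 was most like Gfod1 (0.992), Fsd1 and Gas7, and Fzd6 most like Bhlhe40 (0.982), Mtch2 and Fndc1. The night-minus-day difference was -0.22 for Fzd6 and -0.62 for Bhlhe40. Fzd3 was most like Rufy3 (0.984), Smarca1 and Eif5. Fzd1 was most like Cacnb1 (0.967), Adcyap1 and Clns1a, and Dkk3 most like Gsto1 (0.962), Tcn2 and Gtf3c6. Knockout minus wild type was -0.12 for Rufy3, -0.15 for Smarca1 and -0.12 for Eif5 on the log2 scale, beside -0.10 for Fzd3. Similar genes were picked by their likeness over these same arrays, so differences of like sign are no separate evidence.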

How the data were processed

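RNA of 8 SCN pools was amplified with a whole-transcript kit, labelled with biotin and hybridised, per the labels' protocols. The authors deposited 1 table of log2 values for 28853 probes and 8 arrays; the background correction, summarization and normalization behind it were not stated in the sources used here. The lower quartiles of the deposited columns spread over 0.139, above the limit of 0.1 set for it, so quantile normalization was applied with limma 3.58.1 in R 4.3.3. Probes were named from the platform annotation: 21789 had 1 symbol, 1621 several, and 5443 were unnamed. Of those with 1 symbol, 21698 matched the RefSeq table by Entrez number. Per gene the probe with the highest mean was kept, and genes under the 40th percentile of probe means were left out. A mean per group was fitted to all 8 arrays (lmFit, eBayes; 4 residual degrees of freedom, prior 5.58), with Benjamini-Hochberg adjustment over 12452 genes. The script was tested on simulated data. Values after ± are standard errors of the fit; the number of arrays limits the precision, with a median standard error of 0.0636 for 2 groups and 0.0449 for 4 arrays against 4.

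The 9 genes, the pathway lists and the cell type markers were chosen with earlier results of these data known. Named genes are the 9, called genes of each pathway list in the night-day contrast (up to 4 per list), and the 3 genes most like each measured member. Other pathway genes (among them Lrp6, Ctnnb1, Axin2, Lef1, Sfrp4 and Wif1) were named after their values were seen. Alternatives were other scalings, filters, probe rules, a variance trend, the replicate letter as a block and leaving out arrays.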

Additional observations from a re-analysis of the deposited data

How the results depend on the processing

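Calls of the 9 genes between the times were not counted in any setting, since that contrast helped choose them. Requiring the 60th percentile left fewer genes tested, with Wnt5a, Fzd1, Fzd6, Dkk2 and Lgr5 not among them. Of the other pathway genes 4 were called over both genotypes, 2 in wild type and 2 in the knockout. With the 60th percentile these counts were 8, 1 and 1, with a variance trend the first was 7, with median centring those in wild type and in the knockout were 1 and 1, and as deposited that in the knockout was 1. Leaving out 1 array gave 2 to 6 over both genotypes, 0 to 2 in wild type and 1 to 2 in the knockout, and leaving out both CT18 A arrays gave 0 in wild type and 1 in the knockout. The Znrf3 call was lost without a level filter (limma, adjusted p = 0.0545), and Wif1 was then called lower (0.00166). The Apc2 call was lost with median centring (0.0523) and, in a setting chosen after seeing the data, without the A arrays of both CT18 groups (0.110).

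Some small knockout differences, none past the threshold in any setting, changed sign, and the cause was not tested. As deposited, knockout minus wild type was 0.008 for Fzd6 over both times and 0.0042 at CT6, and -3e-04 for Fzd1 at CT18; the interaction was -0.0371 for Fzd1 and -0.0249 for Sfrp2. With median centring Fzd1 was -0.0046 over both times and -0.0229 at CT18, Fzd6 -0.011 and Dkk3 -0.0075 at CT18, and the interaction -0.0367 for Fzd1 and -0.0245 for Sfrp2. Without both CT18 A arrays Dkk2 was -0.0347 over both times, and at CT18 Fzd8 was 0.0275, Sfrp2 0.027 and Dkk2 -0.1517; the interaction was 0.1479 for Fzd8 and 0.0077 for Dkk3. Leaving out 1 array gave, over both times, ranges of -0.0108 to 0.05 for Fzd1, -0.0439 to 0.0309 for Fzd6 and -0.075 to 0.0351 for Sfrp2. At CT6 they were -0.0764 to 0.0839 for Wnt5a, -0.0238 to 0.0519 for Fzd1, -0.0944 to 0.0552 for Fzd6 and -0.1446 to 0.0752 for Sfrp2. At CT18 they were -0.036 to 0.0857 for Fzd1, -0.0221 to 0.0354 for Fzd6, -0.302 to 0.0518 for Fzd8, -0.0304 to 0.0205 for Sfrp2 and -0.0692 to 0.1277 for Dkk2. For the interaction they were -0.0504 to 0.0715 for Fzd1, -0.1043 to 0.0093 for Fzd3, -0.0484 to 0.1009 for Fzd6, -0.1813 to 0.1734 for Fzd8, -0.0803 to 0.1392 for Sfrp2 and -0.1508 to 0.0455 for Dkk2.

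Over all genes, 2096 were called between the times over both genotypes, 864 in wild type and 891 in the knockout. Without the B array of the knockout at CT18 the first count was 1378, and without both CT18 A arrays the 3 counts were 1070, 242 and 308. Leaving out a wild-type array gave 315 to 492 in wild type, and a knockout array 382 to 511 in the knockout. Median centring gave 590 in the knockout. Knockout against wild type over both times called 3 genes, and 1 to 7 in the other settings; at CT6 it called 1, and 1 to 2, and at CT18 1, and 1 to 3. The interaction called 0 in each setting.

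The labels do not say that the replicate letters mark a shared batch. Correlations of the A minus B difference between groups ran from -0.22 to 0.26, so the arrays were not taken as paired. With the letter as a replicate block, 4 of the other pathway genes were called over both genotypes, as without it, and 1946 genes in all. The 2 arrays per group limit what could be detected, most for the interaction.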
